A study of Mus musculus with 8 samples.

Results

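The genes described here are the 10 integrin subunits that T cells are best known to use, namely *Itgal*, *Itga1*, *Itga2*, *Itga4*, *Itgae*, *Itgav*, *Itgb1*, *Itgb2*, *Itgb7* and *Itgb8*. They were taken by name from the 52636 rows of the deposited table, which holds all 10, each on a single row. All 10 were among the 12816 genes that reached the minimum value for testing. The RNA was that of splenic Tregs (CD4+ Foxp3+) and Tconvs (CD4+ Foxp3-) from 2 kinds of mice, CD27+/- controls and CD11c-*Cd70*tg;CD27+/- (CD70Tg). In the latter, dendritic cells make the CD27 ligand CD70 from a transgene under the CD11c promoter, so that CD27 on T cells is engaged without any intended antigen. Mice of both genotypes are heterozygous for a null allele of *Cd27* and were aged 6 to 8 weeks, and the subsets were separated by the GFP of a Foxp3 reporter. The control samples are titled F1, the study's name for CD27+/- mice, and labelled WT, and the columns named KO were taken as theirs. *Cd27* was at 3239 and 2980 in control and 3129 and 3359 in CD70Tg Tconvs, and at 5173 and 5543 against 6123 and 5894 in Tregs. Each of the 4 groups had 2 libraries, 8 in all, from 200000 sorted cells each. The sources used here do not say whether each library came from 1 mouse or from a pool, so that p-values measure the spread between libraries, which may be technical.

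An integrin is a pair of an alpha and a beta chain that spans the membrane and binds ligands on other cells or in the matrix. The alpha chain sets most of the ligand specificity, and a beta chain such as that of *Itgb1*, *Itgb2* or *Itgb7* can be shared by several alpha chains. In T cells, the pair of *Itgal* and *Itgb2* (LFA-1) binds ICAMs, *Itga4* with *Itgb1* (VLA-4) binds VCAM-1, and *Itga4* with *Itgb7* binds MAdCAM-1, the addressin of gut vessels. *Itgae* (CD103) with *Itgb7* binds E-cadherin on epithelia, *Itga1* (CD49a) and *Itga2* (CD49b) with *Itgb1* bind collagens, and *Itgav* with *Itgb8* frees active TGF-beta from its latent complex, a function known of Tregs. Surface levels also depend on pairing and traffic of the chains, which RNA does not measure.

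Values are given as deposited, in reads per 20 M (below, "value"), in the order first and second library of a group, which is only the order of their columns. The worth of 1 read can be read from the spacing of the lowest values in a library, which gave between 1.9 M reads (first CD70Tg Treg library) and 33.14 M reads (second CD70Tg Tconv library) on genes. That of 33.14 M, and the 19.44 M of the first control Tconv library, are less certain, since 1 read is there worth about 1 or less. The 3 other Treg libraries had 3.65 to 4.52 M, so that fewer reads on genes stand behind the Treg values than behind those of Tconvs, at 6.9 M or more. The value of 3 reads, taken as the smallest told from 0, ranged from 2 to 32, and covers counting error only. The 4 Treg markers (*Foxp3*, *Il2ra*, *Ikzf2*, *Ctla4*) summed to 54604 to 63193 in Treg libraries and to 2695 to 3399 in Tconv libraries. In RNA from sorted populations, more cells with a transcript and more of it per cell cannot be told apart.

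On GRCm38 (mm10), the members lie on 8 chromosomes: *Itgal* at chr7:127296260-127335138, *Itga1* at chr13:114953096-115101964, *Itga2* at chr13:114833081-114932100, *Itga4* at chr2:79255426-79333123, *Itgae* at chr11:73090583-73147446, *Itgav* at chr2:83724397-83806916, *Itgb1* at chr8:128685654-128733200, *Itgb2* at chr10:77530252-77565708, *Itgb7* at chr15:102215995-102231944 and *Itgb8* at chr12:119158022-119238802. *Itga1* and *Itga2* are neighbours on the minus strand. Of the exon length, 8.0% of *Itga4* is shared with *Cerkl* on the opposite strand, 5.9% of *Itgav* with *Gm13684* on the opposite strand, and 3.7% of *Itga1* with *Gm49395* on the same strand. The exons of the other 7 are shared with no annotated gene. The sources used here do not say whether reads were counted by strand.

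Promoters, from 250 bases before to 50 after the start, were found for 7 members (*Itga1*, *Itga2*, *Itga4*, *Itgav*, *Itgb1*, *Itgb7*, *Itgb8*) in RefSeq on GRCm38.p6. *Itgal*, *Itgae* and *Itgb2* were not matched. Those of *Itga4* and *Itgb1*, whose response to CD70Tg passed the test of a difference between the subsets, and of the neighbours *Itga1* and *Itga2* are shown, 5′ to 3′ on the strand of the gene. Motifs were searched on both strands, namely TGTGGT (RUNX, in 16.8% of 32851 promoters of this length), GGTGTGA (T-box, 3.98%) and TGANTCA (AP-1, 7.81%). The *Itga4* promoter holds a T-box match and a RUNX match on the other strand, in capitals, at 165 and 60 bases before the start. None of these letters is in the other 6 promoters, which says nothing of other windows or of the factors.
Itga4 (chr2:79255176-79255475, plus strand): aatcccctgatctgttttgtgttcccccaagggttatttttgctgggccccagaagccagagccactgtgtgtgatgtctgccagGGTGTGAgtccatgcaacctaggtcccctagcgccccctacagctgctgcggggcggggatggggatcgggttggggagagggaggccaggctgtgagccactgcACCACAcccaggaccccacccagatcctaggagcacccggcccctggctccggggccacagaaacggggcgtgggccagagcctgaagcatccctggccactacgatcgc
Itgb1 (chr8:128685404-128685703, plus strand): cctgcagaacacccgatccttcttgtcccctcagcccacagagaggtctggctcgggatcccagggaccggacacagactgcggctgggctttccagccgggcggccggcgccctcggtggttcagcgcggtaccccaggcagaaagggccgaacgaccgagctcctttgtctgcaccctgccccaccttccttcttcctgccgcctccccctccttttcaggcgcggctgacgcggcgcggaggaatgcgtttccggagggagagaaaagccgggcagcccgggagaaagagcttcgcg
Itga1 (chr13:115101915-115102214, minus strand): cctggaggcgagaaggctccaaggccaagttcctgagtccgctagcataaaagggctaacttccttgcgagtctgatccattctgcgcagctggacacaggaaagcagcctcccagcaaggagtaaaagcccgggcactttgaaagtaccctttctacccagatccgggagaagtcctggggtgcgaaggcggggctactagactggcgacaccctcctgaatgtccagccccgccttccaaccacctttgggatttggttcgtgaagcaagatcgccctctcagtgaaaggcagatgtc
Itga2 (chr13:114932051-114932350, minus strand): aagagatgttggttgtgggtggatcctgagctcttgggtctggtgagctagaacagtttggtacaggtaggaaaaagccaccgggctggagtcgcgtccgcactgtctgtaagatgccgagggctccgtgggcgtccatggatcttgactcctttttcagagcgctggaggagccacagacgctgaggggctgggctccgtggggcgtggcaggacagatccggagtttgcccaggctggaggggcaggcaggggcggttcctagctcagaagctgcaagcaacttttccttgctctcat

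Levels between genes were compared per kb of exon. *Itgb7* was the highest in every group, at 7385 ± 259 (SD, n = 2) per kb in control Tconvs and 7826 ± 71 (SD, n = 2) in control Tregs. *Itgb2* followed in every group, at 3959 to 6450 per kb (means of groups). Next came *Itgal* in Tconvs, at 2530 ± 167 (SD, n = 2) per kb in controls, and in control Tregs *Itgb1*, the partner of *Itga4*, *Itga1* and *Itga2*, at 2628 ± 124 (SD, n = 2). At the low end, *Itga1* was at 1.5 ± 0.2 (SD, n = 2) per kb in control Tconvs, next to *Itgb8* at 4.1 ± 1.0 (SD, n = 2). The libraries of neighbours in this order overlapped in 3 places, for *Itgae* and *Itga2* in control Tconvs, for *Itga1* and *Itgb8* in CD70Tg Tconvs, and for *Itgb8* and *Itga2* in CD70Tg Tregs. All other neighbours were apart in both libraries.

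**Figure D1:**
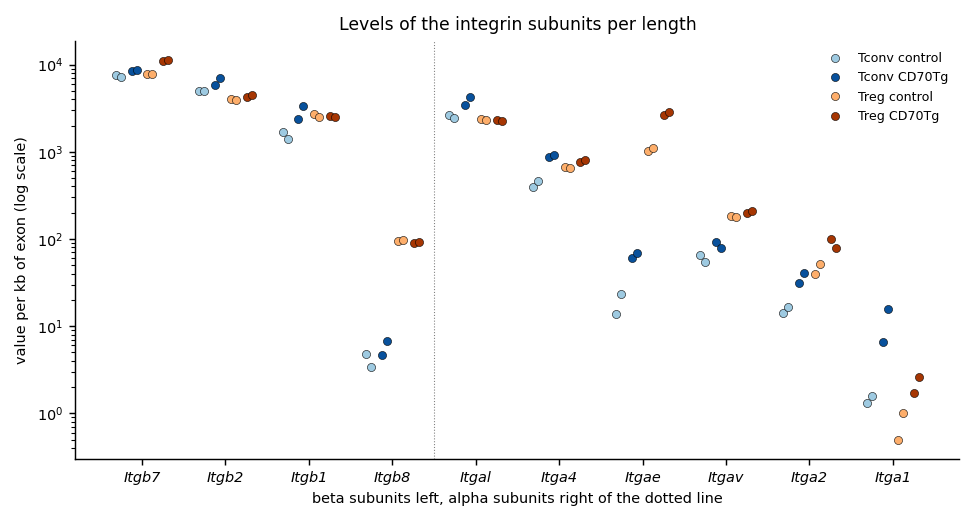
Value per kb of exon on a log axis for each of the 10 subunits, with a point for each library and a colour for each of the 4 groups. *Itgb7* is highest in every group, and *Itgae* runs from 13.8 per kb in a control Tconv library to 2894 in a CD70Tg Treg library.

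Tregs of control mice were first compared with Tconvs of the same genotype, to see which subunits set the subsets apart at rest. Per the methods, an antibody to CD25 was among those used to deplete other cells for the Tconvs and not for the Tregs. *Itgae* and *Itgb8* differed most. *Itgae* was at 4664 and 5031 in control Tregs and at 63 and 107 in control Tconvs, 55.6-fold higher (log2 fold change of 5.80, SE 0.18, adjusted p = 5.07e-12, limma). *Itgb8* was at 1053 and 1082 in control Tregs and at 53 and 38 in control Tconvs, 21.5-fold higher (log2 fold change of 4.42, SE 0.25, adjusted p = 8.66e-10). In Tconvs, *Itgb8* reached the minimum value of 60 in a single library, so that it was tested only through the Tregs, where it is high.

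Its partner *Itgav* was at 1971 and 1901 in control Tregs and at 697 and 582 in control Tconvs, 3.02-fold higher (adjusted p = 1.36e-07). *Itga2*, a collagen receptor chain, was at 282 and 364 against 100 and 118, 2.86-fold higher (adjusted p = 8.13e-05). The antibody DX5, which binds the *Itga2* product CD49b, was in the cocktail that removed other cells before both sorts, per the methods, so that cells with much CD49b had been taken out. *Itgb1* (1.72-fold, adjusted p = 0.000402) and *Itga4* (1.52-fold, adjusted p = 0.000468) were higher in control Tregs by less than 2-fold, with no overlap of the libraries.

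*Itgb2* was slightly lower in control Tregs, at 12272 and 11875 against 15075 and 15280 (log2 fold change of -0.33, adjusted p = 0.0355), and it no longer passed the test without any 1 of the 4 control libraries or of the CD70Tg Treg libraries (adjusted p = 0.0581 to 0.179). *Itgal*, *Itgb7* and *Itga1* did not pass. *Itga1* was at 10 and 18 in control Tregs, where 3 reads are worth 15 and 14, and at 24 and 30 in control Tconvs. In all, 6 members were higher and 1 was lower in control Tregs, and 4 were called, that is, they passed the test (adjusted p under 0.05) and changed more than 2-fold. Among all genes tested, 27.5% were higher, 18.4% were lower and 19.2% were called. Without *Itgb8* and *Itga1*, which reached the minimum value through 1 subset alone, 5 of 8 were higher, 1 was lower and 3 were called. The members' median log2 difference was 0.69 and that of all genes 0.07. The 9 macrophage or monocyte markers summed to 1701 to 1949 in control Tconvs and 4711 to 4745 in control Tregs, although cells with MHCII, CD11c or GR1 were depleted and CD3+ CD4+ cells sorted, per the methods. The part of such cells in the members' values was not tested.

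**Figure D2:**
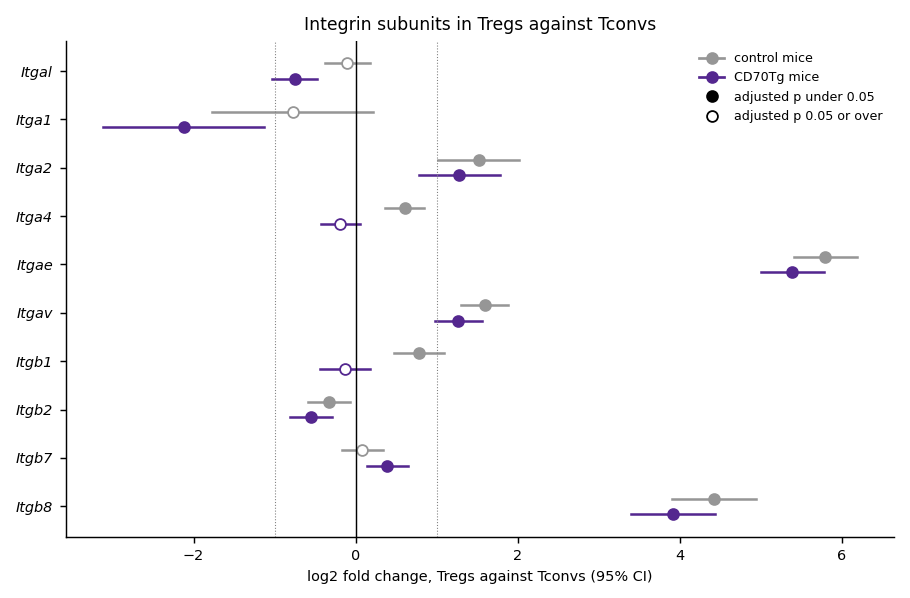
Log2 fold change of Tregs against Tconvs with its 95% confidence interval, in control mice (grey) and CD70Tg mice (purple), with filled points for an adjusted p under 0.05 and dotted lines at the fold threshold. *Itgae* and *Itgb8* lie far to the right in both genotypes, at 5.80 and 4.42 in control mice, and the points of *Itga4* and *Itgb1* are filled in control mice and open in CD70Tg mice.

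The same contrast in CD70Tg mice gave 5 members higher, 3 lower and 5 called, against 22.6%, 20.1% and 17.2% of all genes. *Itgae* (log2 fold change of 5.39, adjusted p = 6.63e-12), *Itgb8* (3.92, adjusted p = 5.61e-09), *Itga2* (1.28, adjusted p = 0.00047) and *Itgav* (1.27, adjusted p = 2.62e-06) were again higher in Tregs. *Itgb7* was higher by 0.39 on the log2 scale (adjusted p = 0.0156), which was lost with either CD70Tg Treg library left out (adjusted p = 0.0794 and 0.0936) and with median-of-ratios factors (0.33, adjusted p = 0.0904). *Itgal* (log2 fold change of -0.75, adjusted p = 0.000249), *Itgb2* (-0.55, adjusted p = 0.00187) and *Itga1* (-2.12, adjusted p = 0.00187) were lower in Tregs of these mice. *Itga1* reached the minimum value through the CD70Tg Tconvs alone, so that it had to differ here, and it did not pass without the second of their libraries (-1.51, adjusted p = 0.0557, with the same genes tested). Without *Itga1* and *Itgb8*, 4 of 8 were higher, 2 lower and 3 called. *Itga4* (-0.19, adjusted p = 0.201) and *Itgb1* (-0.13, adjusted p = 0.484) were not told apart between the subsets. Without the first CD70Tg Tconv library, *Itgb1* was lower in Tregs (-0.38, adjusted p = 0.0314). These contrasts share their libraries with the responses below.

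The response to CD70Tg was then measured within each subset. In Tregs, *Itgae*, *Itga2* and *Itgb7* rose. *Itgae* was at 4664 and 5031 in control and at 12006 and 13256 in CD70Tg Tregs, 2.60-fold higher with the groups far apart (log2 fold change of 1.38, SE 0.18, adjusted p = 0.000195). Its beta chain *Itgb7* went from 21816 and 21538 to 30865 and 31546, 1.44-fold higher (log2 fold change of 0.53, SE 0.12, adjusted p = 0.0135). The libraries of each group lay close together, but with a single Treg library left out the adjusted p was 0.1 to 0.13 and the log2 fold change 0.51 to 0.54. *Itga2* went from 282 and 364 to 711 and 555, 1.95-fold higher (log2 fold change of 0.96, SE 0.24, adjusted p = 0.0208). It did not pass without the first control Treg library (0.78, adjusted p = 0.254) or the first CD70Tg Treg library (0.78, adjusted p = 0.176), and without the second library of either group it was over the fold threshold (1.14 in both, adjusted p = 0.0453 and 0.0368). With no minimum value *Itgb7* (adjusted p = 0.0521) and *Itga2* (adjusted p = 0.0791) did not pass, nor did *Itga2* with limma-voom (adjusted p = 0.0955).

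Sums of markers of several other cell types were also larger in the CD70Tg Treg libraries. Of the CD8 T cell markers, *Cd8a* was at 25 and 71 in control and 262 and 223 in CD70Tg Tregs (adjusted p = 0.00121), and *Cd8b1* at 292 and 346 against 398 and 408 (adjusted p = 0.26). The 8 neutrophil markers summed to 10 to 24 against 259 to 265, 7 dendritic cell markers to 60 to 77 against 285 to 347, and 5 erythroid markers to 449 to 1210 against 1960 to 3148. Most of the dendritic cell sum in CD70Tg Tregs was *Zbtb46* (25 and 27 against 209 and 191). Most of the neutrophil sum was *S100a8* (5 and 0 against 74 and 55) and *S100a9* (0 and 5 against 95 and 104). Of these lists, only *Zbtb46* and *S100a9* reached the minimum value among dendritic cell and neutrophil markers. *Cxcr2*, a neutrophil marker, was at or under 3 reads in every library. The 8 B cell markers summed to 405 to 525 against 531 to 547. The 6 platelet markers, 4 of them at or under 3 reads in every library, summed to 25 to 45 against 67 to 85. The 9 macrophage or monocyte markers summed to 4711 to 4745 in control and 3621 to 3869 in CD70Tg Tregs. Among them *Lyz2* went the other way, from 641 and 872 to 1181 and 1077. The 6 NK cell markers summed to 215 to 282 in control and 136 to 196 in CD70Tg Tregs, which is less in the latter. Per the methods, cells with CD8beta, GR1, CD11c, MHCII or Ter119 had been depleted and CD3+ CD4+ cells were then sorted. The part of any such cells left in the values of *Itgae*, *Itgb7* and *Itga2* was not tested.

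The other 7 members did not pass in Tregs. *Itgal* (15513 and 15390 against 15025 and 14871), *Itgb1* (11078 and 10364 against 10522 and 10271) and *Itgb8* (1053 and 1082 against 983 and 1034) had control and CD70Tg values close to each other. The 95% confidence intervals of their log2 fold changes were -0.32 to 0.23, -0.35 to 0.27 and -0.60 to 0.44. *Itga4* was at 9268 and 9024 in control and at 10710 and 11391 in CD70Tg Tregs (log2 fold change of 0.27, adjusted p = 0.176), and passed with the 4 Treg libraries fitted alone (adjusted p = 0.0343). *Itgav* (0.19, adjusted p = 0.477) and *Itgb2* (0.15, adjusted p = 0.529) had small differences. *Itga1*, at 10 and 18 in control and 32 and 49 in CD70Tg Tregs, had a library at or under 3 reads in either group and an adjusted p of 0.118. Of the 10 members, 3 rose, 0 fell and 1 was called with limma, against 3.94%, 3.46% and 3.6% of all genes tested. At an unadjusted p under 0.05, 5 were higher and 0 lower, and limma-voom gave 2 and 0. The members' median log2 fold change was 0.23 and that of all genes -0.05.

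**Figure D3:**
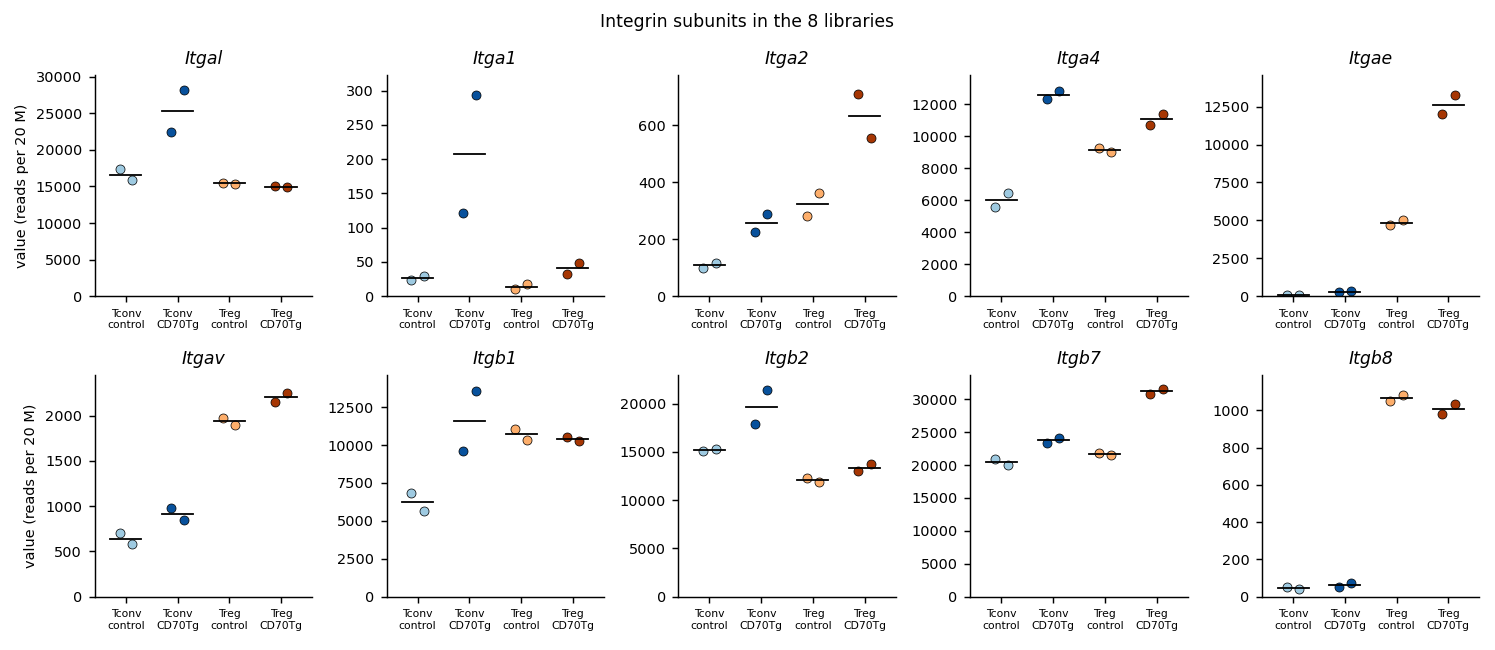
Value of each member (reads per 20 M, linear axes from 0) in the 8 libraries, with a point for each library and a bar at the mean of its group. The CD70Tg Tregs stand highest for *Itgae*, at 12006 and 13256, and the CD70Tg Tconvs for *Itgal*, *Itga1*, *Itga4* and *Itgb2*.

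In Tconvs, 7 of the 10 members rose in CD70Tg mice, 0 fell and 4 were called with limma, against 6.82%, 1.99% and 4.65% of all genes tested. At an unadjusted p under 0.05, 8 were higher and 0 lower, and limma-voom gave 8 and 0. *Itga1* reached the minimum value through the CD70Tg Tconvs alone, so that it had to differ, and without it 6 of 9 rose. The members' median log2 fold change was 0.74 and that of all genes 0.01. The 4 called were *Itga1*, *Itgae*, *Itga2* and *Itga4*, all alpha chains, as most of the members are. The beta chain *Itgb1* passed the test but not the fold threshold.

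*Itgae* was at 63 and 107 in control and at 277 and 315 in CD70Tg Tconvs, 3.44-fold higher (log2 fold change of 1.78, SE 0.18, adjusted p = 5.67e-06). Its level in CD70Tg Tconvs remained far under that of control Tregs. Treg markers summed to 2695 to 3346 in control and to 2915 to 3399 in CD70Tg Tconvs, so that the groups overlapped. Within these sums, *Ctla4* went from 493 and 496 to 663 and 1090, and *Il2ra* from 599 and 965 to 548 and 488. A like sum does not set the Treg part in *Itgae*, which also rose within Tregs. *Cd8a* was at 17 and 28 in control and 508 and 608 in CD70Tg Tconvs, and *Cd8b1* at 703 and 653 against 1055 and 982, in cells from which those with CD8beta had been depleted. The part of CD8 T cells or Tregs in the values of *Itgae*, or of the other members that rose in Tconvs, was not tested.

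*Itga4*, the shared alpha chain of the receptors for VCAM-1 and MAdCAM-1, was at 5587 and 6473 in control and at 12338 and 12836 in CD70Tg Tconvs, 2.09-fold higher (log2 fold change of 1.06, SE 0.11, adjusted p = 8.63e-06). Without the first control library it was just under the fold threshold, at 0.96 (adjusted p = 9.31e-05). *Itga1* was at 24 and 30 against 122 and 294, 6.12-fold higher with a wide spread between the CD70Tg libraries (log2 fold change of 2.61, SE 0.47, adjusted p = 0.00143). It did not pass without the second CD70Tg library (2.00, adjusted p = 0.0727) and did without the first (3.23, adjusted p = 0.00124), with the same genes tested. With the minimum value applied again, it was not tested without either of them. *Itga2*, its neighbour, was at 100 and 118 against 225 and 290, 2.29-fold higher (log2 fold change of 1.20, SE 0.24, adjusted p = 0.0031). Without the second CD70Tg library *Itga2* did not pass (1.02, adjusted p = 0.0541), and with no minimum value neither did *Itga1* (adjusted p = 0.0639) or *Itga2* (adjusted p = 0.053).

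*Itgb1*, the beta chain of these alpha chains, was at 6817 and 5671 in control and at 9615 and 13551 in CD70Tg Tconvs, 1.84-fold higher (log2 fold change of 0.88, SE 0.15, adjusted p = 0.000738). The fold threshold was passed without the first control library (1.01, adjusted p = 0.000526) or the first CD70Tg library (1.12, adjusted p = 3.24e-05). *Itgal*, the alpha chain of LFA-1, was at 17396 and 15849 against 22508 and 28186, 1.52-fold higher (log2 fold change of 0.60, SE 0.13, adjusted p = 0.00596), with an adjusted p of 0.0558 and 0.0594 without the second control or the second CD70Tg library. *Itgav* was at 697 and 582 against 983 and 846, 1.43-fold higher (adjusted p = 0.0246), which was lost without the second control library (adjusted p = 0.232) or the first CD70Tg library (adjusted p = 0.106), and with the Tconv libraries fitted alone (adjusted p = 0.109). With no minimum value, *Itgb1* (adjusted p = 0.0614), *Itgal* (adjusted p = 0.075) and *Itgav* (adjusted p = 0.119) did not pass either, so that *Itgae* and *Itga4* were the only 2 of the 7 that did.

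The 3 that did not pass in Tconvs were beta chains. *Itgb2*, the partner of *Itgal*, was at 15075 and 15280 against 17918 and 21425 (log2 fold change of 0.37, adjusted p = 0.0744), and passed without the first CD70Tg library (0.50, adjusted p = 0.0104) and with limma-voom (0.38, adjusted p = 0.0131). *Itgb7* was at 20964 and 19950 against 23392 and 24172 (0.22, 95% confidence interval -0.04 to 0.47, adjusted p = 0.366). *Itgb8* was at 53 and 38 against 52 and 74 (0.43, adjusted p = 0.392), with overlapping libraries and values that are a small share of those in Tregs.

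**Figure D4:**
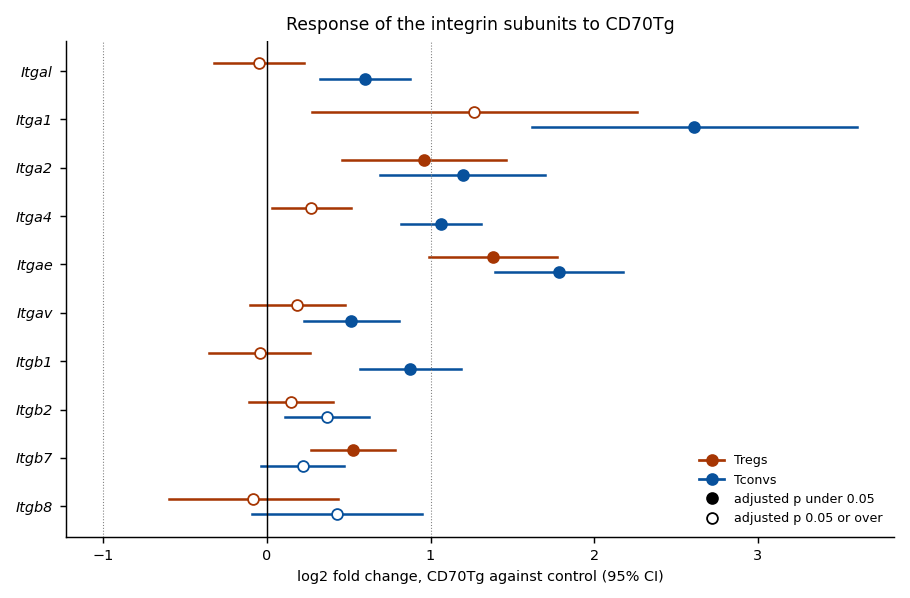
Log2 fold change of CD70Tg against control with its 95% confidence interval, in Tregs (brown) and Tconvs (blue), with filled points for an adjusted p under 0.05 and dotted lines at the fold threshold. All 10 points of Tconvs lie right of 0, and in Tregs those of *Itgal*, *Itgb1* and *Itgb8* lie at -0.05, -0.04 and -0.08.

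Whether a response differed between the subsets was tested directly, as the difference of the log2 fold changes (Treg minus Tconv). It passed for *Itga4* (-0.79, SE 0.16, adjusted p = 0.0226) and *Itgb1* (-0.92, SE 0.21, adjusted p = 0.0411), the chains of VLA-4, each of which rose in Tconvs and did not pass in Tregs. Of all genes tested, 1.02% passed. Neither call held under every library left out. *Itga4* did not pass without the first control Tconv library (-0.69, adjusted p = 0.0653) or without any 1 Treg library (-0.75 to -0.84, adjusted p = 0.0745 to 0.158). *Itgb1* did not pass without the second control Tconv library (-0.79, adjusted p = 0.124), the second CD70Tg Tconv library (-0.67, adjusted p = 0.111) or any 1 Treg library (-0.87 to -0.97, adjusted p = 0.0908 to 0.167). With median-of-ratios factors (adjusted p = 0.114 and 0.0627) and with no minimum value (adjusted p = 0.233 and 0.37) neither passed, and with limma-voom *Itgb1* did not (adjusted p = 0.0867). For *Itgal* the difference was -0.65 (adjusted p = 0.124), and -0.81 (adjusted p = 0.0105) without the first CD70Tg Tconv library. It was -0.40 for *Itgae* (95% confidence interval -0.95 to 0.15, adjusted p = 0.645), which was called in both subsets, and 0.31 for *Itgb7* (-0.05 to 0.67, adjusted p = 0.568). The remaining 5 members lay between -1.35 and -0.22 and did not pass.

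Within a library, the ratio of an alpha to a beta chain does not depend on the library's total. Per kb of exon, *Itgae* to *Itgb7* was 0.129 and 0.141 in control Tregs and 0.235 and 0.254 in CD70Tg Tregs, and at most 0.0079 in any Tconv library. *Itga4* to *Itgb7* was 0.0528 and 0.0643 in control and 0.105 in both CD70Tg Tconv libraries, whereas in Tregs it was 0.0842 and 0.083 in control and 0.0688 and 0.0715 in CD70Tg, so that it moved up in Tconvs and down in Tregs. *Itga4* to *Itgb1*, the ratio within VLA-4, overlapped between control (0.239 and 0.333) and CD70Tg Tconvs (0.375 and 0.276), and was larger without overlap in CD70Tg (0.297 and 0.324) than in control Tregs (0.244 and 0.254). *Itgal* to *Itgb2* was 0.536 and 0.482 in control and 0.583 and 0.611 in CD70Tg Tconvs, and 0.587 and 0.602 in control and 0.535 and 0.503 in CD70Tg Tregs, so that it too moved up in Tconvs and down in Tregs. *Itgav* to *Itgb8* was 1.93 and 1.81 in control and 2.26 and 2.24 in CD70Tg Tregs, and 11.8 to 19.5 in Tconvs, where *Itgb8* is low. These ratios were not tested.

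For each member called in any contrast, the genes with the nearest profile over the 8 libraries were taken from the 12816 genes, by the root mean square difference of centred log2 values. For *Itga4* the nearest was *Cerkl*, the gene on the opposite strand that shares 8.0% of its exon length, at a difference of 0.12. *Cerkl* was at 800 and 892 in control and at 1568 and 1672 in CD70Tg Tconvs. How reads were counted where both genes overlap, by strand or not, is not stated in the sources used here. Nearest to *Itgb8* was *Gm29114* (0.18), followed by *Ikzf2* (0.19) and *Ctla4* (0.24), both in the list of Treg markers. *Itgae* had *Neb* at 0.35 as its first, *Itgb1* had *Ksr1* at 0.08, *Itgav* had *Amigo3* at 0.11, *Itga2* had *Adam9* at 0.13 and *Itga1* had *Il18rap* at 0.32.

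Of the 17 other integrin subunits, 10 reached the minimum value. *Itgb4*, *Itgb6*, *Itga2b*, *Itga8*, *Itga10*, *Itga11* and *Itgb2l* did not. Between the subsets, 4 were higher, 2 lower and 5 called in control Tregs (27.5%, 18.4% and 19.2% of all genes), and 4, 3 and 6 in CD70Tg Tregs (22.6%, 20.1% and 17.2%). Control Tregs were higher in *Itgad* (log2 fold change of 2.55, adjusted p = 4.97e-06), *Itgb5* (1.47, adjusted p = 0.0044), *Itga3* (1.09, adjusted p = 0.00312) and *Itga6* (0.76, adjusted p = 0.000151), and lower in *Itgb3* and *Itga7* (-1.01, adjusted p = 0.00417). *Itgb5* reached the minimum value through the Tregs but for 1 library, and without it 3 of 9 were higher and 4 called. *Itgb5* (adjusted p = 0.0537) and *Itga3* (adjusted p = 0.0511) were lost without the second control Tconv library, and *Itga7* without the first (adjusted p = 0.101). CD70Tg Tregs were higher in *Itgam* (2.07, adjusted p = 1.13e-05), *Itga3* (1.41, adjusted p = 0.0005) and *Itga9* (1.11, adjusted p = 0.00964), and lower in *Itga7* (-1.43, adjusted p = 0.000322), *Itgb3* (-1.38, adjusted p = 1.55e-07) and *Itgad* (-1.18, adjusted p = 0.00543). *Itgad* (adjusted p = 0.0995 and 0.0539) and *Itga9* (adjusted p = 0.0563 and 0.051) were lost without the second CD70Tg Tconv or the second CD70Tg Treg library.

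In Tregs, *Itgam* (CD11b, a chain of complement receptor 3) rose and *Itga6*, a laminin receptor chain, fell, and 8 did not pass, where 3.94% of all genes rose and 3.46% fell. With limma-voom and with no minimum value, neither passed (adjusted p = 0.0529 to 0.0832). *Itgam* went from 146 and 198 to 377 and 381 (log2 fold change of 1.13, adjusted p = 0.0129), which was lost without the first control Treg library (0.92, adjusted p = 0.193) or either CD70Tg Treg library (1.14 and 1.13, adjusted p = 0.0677 and 0.0601). The name is on 2 rows of the table and 68.7% of its exon length is shared with *Gm49368* on the same strand, so that its values are uncertain. The neutrophil, dendritic cell and erythroid sums given above were higher in the same libraries. Those of macrophage or monocyte and of NK cell markers were smaller, though *Lyz2* among the former was larger. The part of any such cells in the values of *Itgam* was not tested. *Itga6* went from 7852 and 7080 to 5016 and 5024 (-0.57, adjusted p = 0.0115), which was lost without the first control (adjusted p = 0.17) or either CD70Tg Treg library (adjusted p = 0.0901 and 0.0761).

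In Tconvs, *Itgad* (CD11d), *Itgax* (CD11c) and *Itga7* rose, *Itga9*, *Itgam* and *Itgb3* fell, and 4 did not pass, where 6.82% of all genes rose and 1.99% fell. With no minimum value, *Itgax*, *Itga7*, *Itga9* and *Itgam* did not pass (adjusted p = 0.0907 to 0.197). *Itgad*, an alpha chain that pairs with *Itgb2*, was at 56 and 63 in control and at 306 and 578 in CD70Tg Tconvs, 6.61-fold higher (log2 fold change of 2.73, SE 0.30, adjusted p = 1.23e-05). In Tregs it was at 326 and 425 in control and at 220 and 153 in CD70Tg (95% confidence interval of the log2 fold change -1.64 to -0.36, adjusted p = 0.0556, and under 0.05 in 5 of 17 alternatives, the lowest being 0.0176 with the Treg libraries fitted alone), and the difference of the responses was -3.73 (SE 0.43, adjusted p = 0.000338, and 0.159 with no minimum value). Of its exon length, 19.7% is shared with other annotated genes. The macrophage or monocyte sums given above were larger in control Tregs than in control Tconvs and smaller in CD70Tg Tregs. In Tconvs they were 1701 to 1949 in control and 1188 to 1667 in CD70Tg. *Lyz2* of that list went the other way in Tregs, from 641 and 872 in control to 1181 and 1077 in CD70Tg. In control Tconvs it was at 788 and 835, overlapping with control Tregs. The part of such cells in the values of *Itgad* was not tested. *Itgam* fell in Tconvs, from 178 and 166 to 93 and 80 (-0.95, adjusted p = 0.0269), so that the difference of its responses was 2.09 (SE 0.36, adjusted p = 0.00867, and 0.191 with no minimum value), and its fall alone was lost without either control library (adjusted p = 0.162 and 0.123) or the second CD70Tg library (adjusted p = 0.149). The 6 NK cell markers, of which *Ncr1* and *Klra8* were at or under 3 reads in every library, summed to 497 to 550 in control and 107 to 148 in CD70Tg Tconvs. Most of the control sums was *Klrb1c*, at 403 and 423 in control and 75 and 68 in CD70Tg Tconvs. The part of such cells was not tested.

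*Itgax*, the gene of the antigen against which the depletion antibody N418 is directed and whose promoter drives the transgene, was at 31 and 57 against 101 and 236 in Tconvs (1.76, adjusted p = 0.0152), which was lost without the first control (adjusted p = 0.15) or the second CD70Tg library (adjusted p = 0.261). The 7 dendritic cell markers summed to 48 to 90 in control and 97 to 114 in CD70Tg Tconvs, and their part in the values of *Itgax* was not tested. *Itga9* went from 108 and 126 to 52 and 40 (-1.26, adjusted p = 0.0164), with an adjusted p of 0.0628 to 0.159 without either control or the second CD70Tg library. *Itgb3*, the partner of *Itgav* in the vitronectin receptor, fell from 5281 and 5259 to 3760 and 3321 (-0.58, adjusted p = 0.00361) and was at 1233 and 1244 in control Tregs (log2 fold change against control Tconvs of -2.08, adjusted p = 9.42e-10). *Itga7* rose by 0.84 (adjusted p = 0.0496), lost without the second control library (0.52, adjusted p = 0.507), either CD70Tg Tconv library (adjusted p = 0.11 and 0.201) or either control Treg library (adjusted p = 0.0606 and 0.0609). *Itga5*, the alpha chain of the main fibronectin receptor, went from 191 and 160 to 110 and 83 in Tconvs (adjusted p = 0.0899) and from 190 and 211 to 115 and 87 in Tregs (adjusted p = 0.0522), with no overlap of the libraries but without passing in either. It passed in Tconvs with limma-voom (-1.01, adjusted p = 0.00588), and in Tregs with a pseudocount of 20 or without either CD70Tg Tconv library (adjusted p = 0.0372 to 0.0437).

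**Figure D5:**
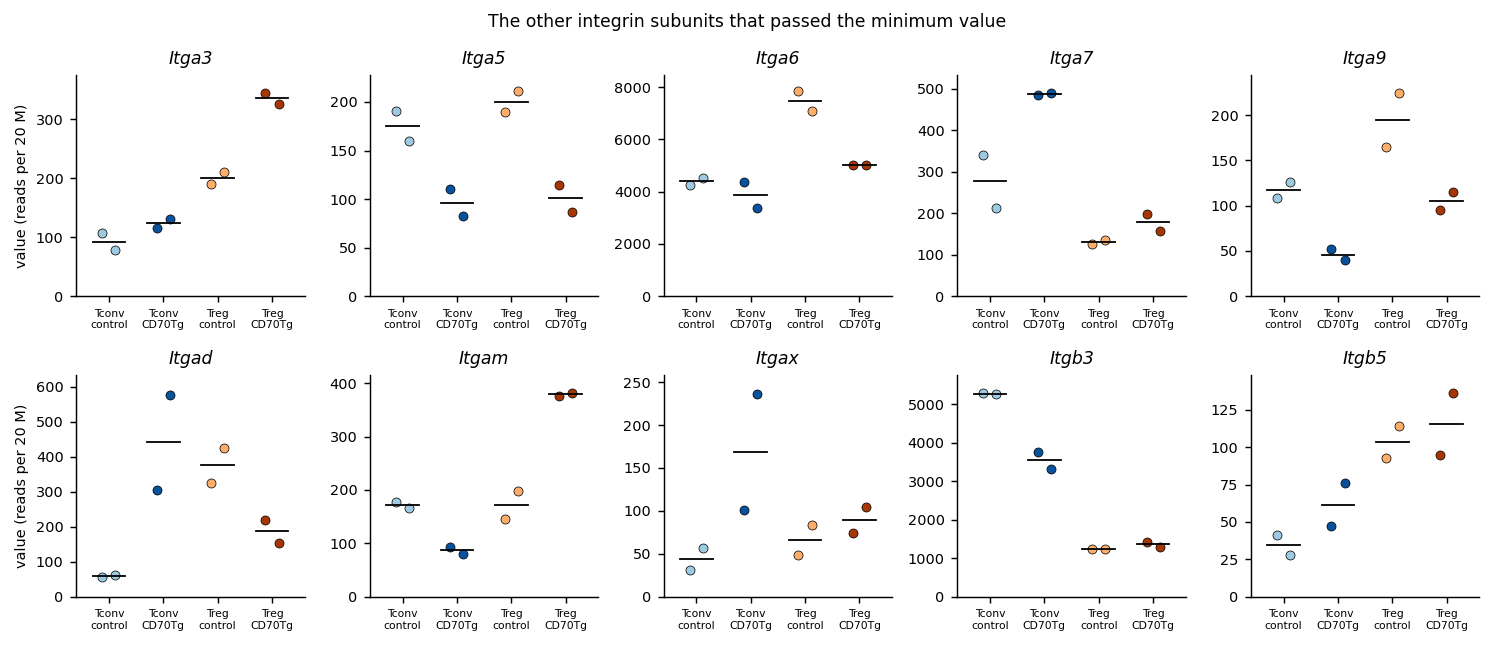
Value (reads per 20 M, linear axes from 0) in the 8 libraries of the 10 other integrin subunits that reached the minimum value, with a point for each library and a bar at the mean of its group. *Itgad* is high in CD70Tg Tconvs, at 306 and 578, and in control Tregs, at 326 and 425, and *Itgam* in CD70Tg Tregs, at 377 and 381.

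Genes that link integrins to the cytoskeleton or switch them on, such as talin, kindlins, Rap1 and its regulators, were taken as a list of 32, of which 28 were tested. Their median log2 fold change was -0.09 in Tregs and -0.06 in Tconvs. In Tregs 0 rose with limma (1 at an unadjusted p under 0.05, 0 with limma-voom) and 1 fell, *Actn1* (alpha-actinin), from 3237 and 2864 to 1641 and 2012 (-0.74, adjusted p = 0.00306), lost without the first control (adjusted p = 0.0609) or the first CD70Tg Treg library (adjusted p = 0.0739), with limma-voom (adjusted p = 0.0673) and with no minimum value (adjusted p = 0.0628). In Tconvs 0 rose with limma (3 at an unadjusted p under 0.05, 2 with limma-voom) and 2 fell, *Cytip* (-0.41, adjusted p = 0.0444) and *Skap1* (-0.38, adjusted p = 0.0377), each lost with a library left out in 7 or more of 8 cases (adjusted p up to 0.222 and 0.185), while limma-voom gave 4 that fell. Of all genes, 3.94% rose and 3.46% fell in Tregs, and 6.82% and 1.99% in Tconvs. The difference of the responses passed for 0 of the 28 with limma or limma-voom, and for 0 at an unadjusted p under 0.05. In CD70Tg mice 2 were higher and 11 lower in Tregs (22.6% and 20.1% of all genes), and in control mice 1 was higher and 11 were lower (27.5% and 18.4%), with 3 called (19.2%), namely *Actn1* (-2.37, adjusted p = 1.25e-09), *Rasgrp2* (-1.18, adjusted p = 5.05e-07), which activates Rap1, and *Rsu1* (-1.03, adjusted p = 2.83e-05). *Rsu1* was under the fold threshold without the second control Tconv library (-0.939) or the second control Treg library (-0.94). *Tln1*, the gene of talin, was at 18961 to 22151 in all 8 libraries.

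Of 16 ligands and partners of integrins, 11 were tested. *Icam1*, a ligand of LFA-1 that T cells also carry, rose in Tconvs from 1187 and 896 to 2435 and 3659 (log2 fold change of 1.53, SE 0.17, adjusted p = 9.63e-06). In Tregs it went from 2994 and 2930 to 4775 and 4513 (0.65, adjusted p = 0.0252), with an adjusted p of 0.0942 to 0.16 without any 1 Treg library. *Spp1* (osteopontin), which several integrins bind, rose in Tconvs from 13 and 3 to 156 and 200 (3.92, adjusted p = 0.000187), and reached the minimum value through that group alone. The matrix genes *Col4a1* (2.14, adjusted p = 0.01) and *Fn1* (1.65, adjusted p = 0.0146) rose in Tregs. *Col4a1* was at 39 and 49 in control and at 418 and 104 in CD70Tg Tregs, and was lost without the first control (1.99, adjusted p = 0.084) or the first CD70Tg library (1.16, adjusted p = 0.141), and *Fn1*, at 54 and 36 against 178 and 126, without the second control (1.39, adjusted p = 0.115) or the first CD70Tg library (1.41, adjusted p = 0.117). *Fn1* reached 60 outside the CD70Tg Tregs in 1 library alone, at that value, so that it was tested through the group where it is high. With no minimum value *Col4a1* (adjusted p = 0.121), *Fn1* (adjusted p = 0.0792) and *Icam1* (adjusted p = 0.166) did not pass in Tregs. Without genes that reached the minimum value only through the group where they are higher (*Fn1* and *Lama5* in Tregs, *Cdh1* and *Spp1* in Tconvs), 2 of 9 rose in Tregs and 1 of 9 in Tconvs. In all, 3 rose in Tregs (3.94% of all genes) and 2 in Tconvs (6.82%) and 0 fell with limma, while 2 in Tregs and 0 in Tconvs were lower at an unadjusted p under 0.05, and limma-voom had 0 higher in Tregs, 3 higher in Tconvs and 0 lower. The difference of the responses passed for 0 with limma or limma-voom (4 at an unadjusted p under 0.05).

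Between the subsets of control mice, 4 of the 11 were higher and 2 lower in Tregs (27.5% and 18.4% of all genes), and in CD70Tg mice 5 and 2 (22.6% and 20.1%). Without those tested through 1 subset alone (*Cdh1*, *Spp1*, *Lama5* and, in CD70Tg mice, *Fn1*), 3 of 8 were higher and 2 lower in control mice, and 3 of 7 and 1 in CD70Tg mice. *Lrrc32* (GARP), which holds latent TGF-beta at the surface of Tregs, where *Itgav* with *Itgb8* acts on it, was at 11665 and 10684 in control Tregs and at 200 and 277 in control Tconvs (log2 fold change of 5.54, adjusted p = 5.84e-12). *Tgfb1* itself was at 3711 to 4768 in all 8 libraries. *Vcam1*, the ligand of VLA-4, was at 1034 and 1305 against 104 and 195 (2.98, adjusted p = 2.61e-07), *Icam1* was higher by 1.52 (adjusted p = 2.1e-06) and *Lama5* by 1.71 (adjusted p = 0.00258). *Lama5* was at 15 to 26 in Tconvs and reached the minimum value through the Tregs alone, so that it had to differ. *Icam2* was lower, by -1.12 (adjusted p = 3e-06), and *Nrros* was at the threshold (-0.30, adjusted p = 0.0496), passing in 7 of 17 alternatives (adjusted p up to 0.21). Macrophages, whose markers had larger sums in control Tregs, also make *Vcam1*, and their part in the values of *Vcam1* was not tested. *Madcam1* was under the minimum value, as were *Icam4* and 3 others.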

How the data were processed

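The authors removed adapters with Trimmomatic 0.36, mapped reads to mm10 with STAR 2.5.3 and counted them per gene with HTSeq 0.9.1, per the labels and methods. The deposited score values are these counts scaled to 20 M per library, with fractions rounded up (totals 19963628 to 20164600). Columns were mapped to groups by name, with KO read as the control group. Its samples are titled F1, which the study gives as CD27+/-, and labelled WT. The 4131 rows with clone-derived names were left out, since their low values follow the step of another library. Of rows sharing a name, that with the largest total kept it.

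Genes with at least 60 in 2 libraries (12816) were tested with limma 3.58.1 in R 4.3.3, as log2(value + 5) with a trend, a coefficient for each of the 4 groups and Benjamini-Hochberg adjustment. Fold changes are on this scale, which understates those of low genes. Calls need an adjusted p under 0.05 and, except for the difference of responses, over 2-fold change. "Rose", "fell", "higher" and "lower" mean an adjusted p under 0.05. The script was tested on simulated data. Positions and exon lengths are from GENCODE M21.

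Named are all members, and of each list at most 6 genes per contrast, from the largest among those that passed. Genes named without passing (*Itga5*, *Tln1*, *Tgfb1*) were chosen after their values were seen. The members and lists were chosen with earlier results of these data known. Alternatives were other pseudocounts (1, 20), minimum values (none, 60 on average, over 10 in all libraries), median-of-ratios factors, limma-voom on recovered reads, clone-named rows kept, the 2 groups alone, no fold threshold, an adjusted p under 0.01, and each library left out.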

Additional observations from a re-analysis of the deposited data

Results flagged for a closer look

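For the transcripts of 4 integrin chains, the test of the difference between the responses to CD70Tg in the subsets was passed (limma, Treg minus Tconv, on the log2 scale). The difference was -0.79 for *Itga4* (adjusted p = 0.0226), -0.92 for *Itgb1* (adjusted p = 0.0411) and -3.73 for *Itgad* (adjusted p = 0.000338). These chains rose in Tconvs and did not pass in Tregs, where *Itgad* was lower in both CD70Tg libraries (adjusted p = 0.0556, and under 0.05 in 5 of 17 alternatives). For *Itgam* it was 2.09 (adjusted p = 0.00867), with a rise in Tregs and a fall in Tconvs. The calls of *Itga4* and *Itgb1* were lost without 5 and 6 of the 8 single libraries, and with median-of-ratios factors (adjusted p = 0.114 and 0.0627). With no minimum value none of the 4 passed (adjusted p = 0.159 to 0.37). Groups of 2 libraries are too small for a check of single outlying libraries.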

How the results depend on the processing

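No paired analysis was possible because the table names its columns by a running number, which could be matched only by order to the replicate numbers in the sample titles. Of the members, 1 was called in Tregs, 4 in Tconvs, 4 and 5 between the subsets in control and CD70Tg mice, and 2 for the difference of the responses, and of all genes 462, 596, 2455, 2210 and 131. With no fold threshold these were 3, 7, 7 and 8 members, and 948, 1129, 5875 and 5467 genes. With no minimum value, 2 members were called in Tconvs and 0 for the difference with limma (4 at an unadjusted p under 0.05), and 202 genes in Tregs, 283 in Tconvs and 0 for the difference (2249 at an unadjusted p under 0.05). Limma-voom gave 171 genes in Tregs and 1 member and 64 genes for the difference. At an adjusted p under 0.01 there were 251 genes in Tregs, and for the difference 0 members with limma and 48 genes. For the difference, a pseudocount of 1 left 1 member (*Itga4*) and median-of-ratios factors 0 with limma (3 at an unadjusted p under 0.05). With a library left out, the members called were 1 to 2 in Tregs, 2 to 4 in Tconvs and 0 to 3 for the difference, and the genes 220 to 472, 304 to 768 and 59 to 271. The lowest came without the first control Treg library (220), the second CD70Tg Tconv library (304, and 2 members) and the first CD70Tg Treg library (59), the highest (271) without the first CD70Tg Tconv library.

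Median-of-ratios factors moved the median of all genes between control Tregs and Tconvs from 0.07 to -0.06, and turned *Itgb7* there to -0.042 (adjusted p = 0.836). *Itgb1* turned in Tregs (0.0044, adjusted p = 0.997) without the first control Treg library, its range with a library left out being -0.0917 to 0.0044, and to 0.11 between the subsets of CD70Tg mice (adjusted p = 0.533) without the second CD70Tg Tconv library, in a range of -0.38 to 0.11. No other value of a member changed its direction under these alternatives, nor did those of other genes that were recomputed (those that passed and were named by the rule, and the responses of *Itga5* and *Itgad*). The causes were not tested. Depth limits *Itga1* in Tregs, where values are near those of 3 reads. *Itga1* was not tested where a value above 10 in every library was required or without either CD70Tg Tconv library. With the genes of the full fit kept, an alternative chosen after seeing the data, its rise in Tconvs did not pass without the second of these (2.00, adjusted p = 0.0727).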
